A study of Mus musculus with 9 samples.

Results

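The secreted signals of T cells were examined through 10 genes, found by symbol among the 55421 genes counted in this series: the effector cytokines Ifng, Tnf and Lta, the growth factors Il2, Il3 and Csf2, the regulatory cytokine Il10, and the chemokines Ccl3, Ccl4 and Xcl1. All 10 were found, each with 1 identifier. The count level needed for testing was reached by 9 of them, and Il3 fell short of it. RNA was sequenced from CD8+ T cells of the spleens of Pmel Ly5.1 mice, whose T cells carry a transgenic receptor, and the 9 libraries share that genotype. In 6 libraries the T cells had been kept for 36 h on DM5, a stromal line of BL6 bone marrow that had been immortalised and had its mitochondria labelled with DsRed, a red fluorescent protein. Cell sorting had then divided them into DsRed-positive T cells (MitoPositive, 3 libraries) and DsRed-negative T cells (MitoNegative, 3 libraries). T cells that had met no stromal cells gave the monoculture group of 3 libraries. The 36 h is labelled for the co-cultured libraries only. A difference in time in culture therefore cannot be told apart from co-culture. DM5 is 1 line, and a time of 0 h stands in the titles without explanation. Each group had libraries lettered B, C and D. Whether a letter stands for its own mouse or culture is not labelled, and each p-value therefore reflects spread among libraries that could be technical.

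Interferon gamma, tumour necrosis factor and lymphotoxin alpha are the cytokines by which a CD8+ T cell acts on target cells and on macrophages. Interleukin 2 drives division of T cells, while interleukin 3 and GM-CSF (the product of Csf2) act on blood progenitors and myeloid cells, and interleukin 10 restrains inflammation. Ccl3 and Ccl4 draw in leukocytes, and Xcl1 attracts the dendritic cells that present antigen to CD8+ T cells. In a T cell these genes are transcribed after antigen-receptor signals through factors such as NFAT, AP-1 and NF-kappaB, and many of their mRNAs are short-lived because proteins such as Zfp36 (tristetraprolin) bind AU-rich stretches in them.

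Promoters of 3 members are shown because their genes stand for the patterns described below: Ifng and Tnf were higher in both co-cultured groups, and Xcl1 passed against monoculture only with the letter of the library as a block. The sequences are from RefSeq (GRCm38.p6), 5′ to 3′ on the gene's strand, up to the base before the gene's start. The window is 250 bases, shortened to 245 for Xcl1, whose other 5 bases lie within the deposited gene. Capitals mark the NFAT core GGAAA on either strand (TTTCC where it lies on the other strand) and the TATA box TATAAA. Ifng lies at chr10:118440796-118441045 on the plus strand, Tnf at chr17:35202008-35202257 on the minus strand and Xcl1 at chr1:164935528-164935772 on the minus strand.
Ifng: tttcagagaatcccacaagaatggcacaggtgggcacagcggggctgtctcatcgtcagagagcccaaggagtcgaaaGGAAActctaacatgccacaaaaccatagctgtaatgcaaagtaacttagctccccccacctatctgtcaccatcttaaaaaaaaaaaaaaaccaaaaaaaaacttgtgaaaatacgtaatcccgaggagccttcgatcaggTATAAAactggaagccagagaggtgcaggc
Tnf: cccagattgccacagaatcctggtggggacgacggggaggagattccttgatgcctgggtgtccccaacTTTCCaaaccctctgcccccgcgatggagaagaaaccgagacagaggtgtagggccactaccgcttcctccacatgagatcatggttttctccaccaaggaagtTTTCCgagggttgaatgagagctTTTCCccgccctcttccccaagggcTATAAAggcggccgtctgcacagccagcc
Xcl1: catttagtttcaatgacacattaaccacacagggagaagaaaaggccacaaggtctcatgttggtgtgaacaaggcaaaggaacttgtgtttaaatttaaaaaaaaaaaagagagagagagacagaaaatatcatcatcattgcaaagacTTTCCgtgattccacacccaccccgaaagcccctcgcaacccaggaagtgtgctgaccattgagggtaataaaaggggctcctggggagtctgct
The table of promoters held 8 of the 10 members, without Il10 and Ccl4. Each of the 8 had at least 1 NFAT core, a motif found in 55.6% of 32851 promoter windows. TATAAA on the gene's own strand, found in 7.59% of windows, was present in Ifng (bases -30 to -25 from the start), Tnf (-29 to -24), Il2 (-26 to -21) and Lta (-167 to -162). The AP-1 motif TGANTCA, the cyclic AMP element TGACGTCA and the NF-kappaB motif, each searched on both strands, had no match in the 8 windows, against 6.75%, 1.55% and 7.25% of all windows. Between the window and the start of the deposited gene, 232 bases for Csf2, 23 for Ccl3 and 2 for Il3 were not searched. For Csf2 the sequence next to that start is therefore not covered.

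The 3′ untranslated regions hold the pentamer ATTTA, the core of AU-rich elements, and the densest stretch of 30 bases is shown for the 4 members with 3 or more copies in it. The sequences were read from GENCODE M21 (GRCm38), with the pentamers in capitals.
Tnf: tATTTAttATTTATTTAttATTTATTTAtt
Csf2: aaatATTTATTTATTTATTTATTTAttttt
Il2: tATTTATTTAaatATTTAactttaATTTAt
Ifng: ctATTTAttaatATTTAaaactATTTAtat
Tnf and Csf2 each had 5 copies in the stretch, Il2 had 4 and Ifng had 3. Among 21037 genes, 0.271% had a stretch with at least 5 copies, 0.589% one with at least 4 and 2.56% one with at least 3. Lta and Ccl3 reached 2 copies, and Il3, Il10, Ccl4 and Xcl1 reached 1. A match describes the sequence and shows no binding.

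The 9 libraries held 53546152 to 74722832 counts. Levels are given as CPM, a gene's counts relative to the normalised library size. Summed CD8 T-cell markers reached 11523 to 11977 CPM in MitoPositive, 11211 to 11712 in MitoNegative and 12644 to 14511 in monoculture. Of the 15 genes, 11 and 12 were lower in MitoPositive and MitoNegative than in monoculture. Over all genes tested 22.3% were higher and 19.9% lower in MitoPositive, and 20.6% and 18.3% in MitoNegative. These shares are the background for the marker counts that follow too. Summed stromal markers (25 genes, 21 tested) reached 75.1 to 101 CPM in MitoPositive, 74.5 to 99.9 in MitoNegative and 38.8 to 48.7 in monoculture, and 18 of the 21 were higher in each co-cultured group than in monoculture. In monoculture 13 of the 25 had 0 counts, Col1a2, Col3a1, Sparc and Ccl2 among them. Genes at 0 there could reach the count level needed for testing only through co-cultured libraries. For them a difference from monoculture was needed to be tested at all, so the count of 18 is no independent support. Eng had the highest mean of the list, at 40.5 CPM in MitoPositive, 36.7 in MitoNegative and 27.6 in monoculture. Summed myeloid markers (15 genes) were 14.7 to 18.6, 17.0 to 23.6 and 9.26 to 13.5 CPM in the same order, with C1qa, S100a8, S100a9 and Csf3r at 0 throughout. Of 10 tested, 2 were higher and 3 lower in MitoPositive, and 2 and 2 in MitoNegative, near the shares of all genes. Summed natural killer and innate lymphoid markers (12 genes) were 390 to 453, 342 to 367 and 199 to 276 CPM, most of it Nkg7, which cytotoxic T cells also express. Ncr1, a defining gene of natural killer cells, had at most 0.205 CPM in any library. Summed mast cell and basophil markers (11 genes) were 332 to 420, 334 to 424 and 284 to 335 CPM, nearly all of it Kit, with Mcpt4, Tpsb2 and Prss34 at 0. Summed B-cell markers (13 genes) were lower after co-culture, with 283 to 318, 375 to 472 and 713 to 785 CPM, most of it Ighm. The sum of the dendritic and class II markers (10 genes, Siglech at 0) was lower too, with 60.9 to 87.5, 56.0 to 84.2 and 124 to 188 CPM. Of 8 tested, 1 was higher and 3 lower in MitoPositive, and 1 and 4 in MitoNegative. The higher one was Zbtb46 (log2 1.80 and 1.67), while Cd74, H2-Aa and H2-Eb1 were lower in both groups. Summed CD4 T-cell markers (7 genes, Il17a and Il4 at 0) were 49.3 to 59.6, 45.4 to 48.0 and 51.2 to 54.4 CPM, nearly all of it Zbtb7b. Cd4 itself had at most 3.39 CPM in any library. The part of these cells in the results below was not tested, and in bulk RNA fewer cells of a type and less RNA per cell cannot be told apart.

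The members covered a wide range of levels, which can be compared between genes only per length. In monoculture, Xcl1 was the most abundant member at 37.1 ± 10.4 CPM per kb of exon (mean ± SD, n = 3), followed by Lta at 10.9 ± 0.997, Ccl4 at 6.06 ± 1.36, Ifng at 3.12 ± 0.796, Ccl3 at 2.58 ± 0.441 and Tnf at 1.81 ± 0.233. Csf2 (0.435 ± 0.345), Il2 (0.0530 ± 0.0418) and Il10 (0.0126 ± 0.0125) were near the bottom, and Il3 had no counts. The ranges of Ifng and Ccl3 overlapped, as did those of Ccl3 and Tnf and those of Il10 and Il3, while the other neighbours in the order were apart. In MitoNegative cells Ifng (55.0 ± 13.1 CPM per kb) and Xcl1 (55.1 ± 17.0) overlapped at the top. In MitoPositive cells Ifng led at 110 ± 52.8 CPM per kb, with a range that overlapped that of Xcl1 at 50.4 ± 13.3. Lta came next, apart from its neighbours, in both co-cultured groups, at 11.96 ± 0.801 in MitoNegative and 13.2 ± 0.748 in MitoPositive. Next were Ccl4, Csf2, Ccl3 and Tnf in MitoPositive, and Ccl4, Ccl3, Csf2 and Tnf in MitoNegative. Within each of these orders the ranges overlapped from each gene to the next. Il10, Il2 and Il3 came last in both groups. Ifng made up 6.43 to 11.2% of the summed CPM of the 10 genes in the monoculture libraries, 51.5 to 55.3% in MitoNegative and 56.5 to 73.8% in MitoPositive. The sum itself was 47.9 ± 5.50 CPM in monoculture, 133 ± 27.1 in MitoNegative and 205 ± 77.7 in MitoPositive.

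**Figure D1:**
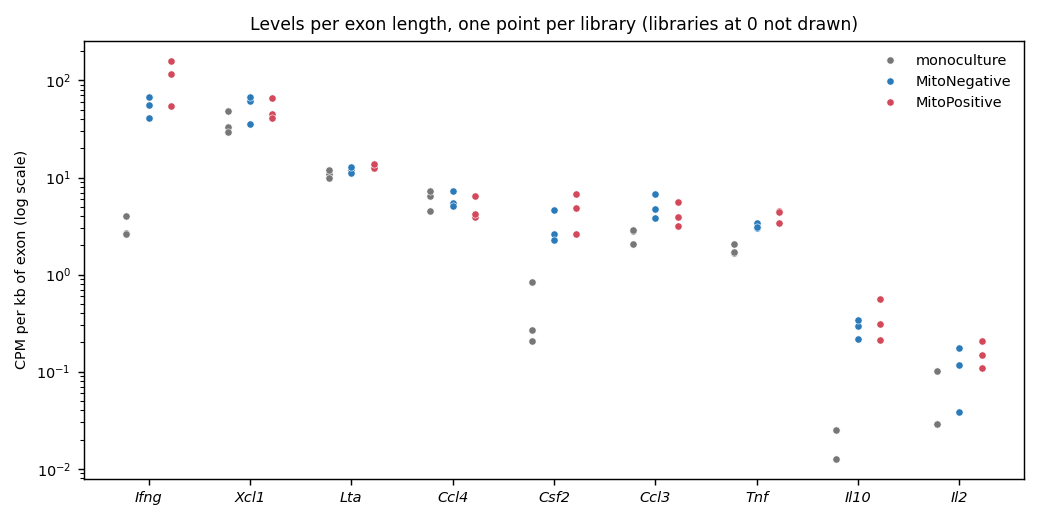
Levels of 9 members per kb of exon in each library (log scale, CPM per kb; grey monoculture, blue MitoNegative, red MitoPositive; libraries at 0 and Il3 are not drawn). Ifng lies below Xcl1 and Lta in monoculture, while its MitoPositive libraries lie between 54.8 and 160 CPM per kb.

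The comparisons with monoculture asked how T cells sorted from co-culture differed from T cells kept alone. In both co-cultured groups Ifng, Tnf, Csf2 and Ccl3 were higher than in monoculture, and no member was lower by the test. Il10 was higher as well, but could be tested only because its co-cultured libraries reached the count level of the filter, which none of its monoculture libraries did. Ifng was 35.2-fold higher in MitoPositive and 17.6-fold higher in MitoNegative, the largest fitted folds of the 10 genes in MitoPositive, while Il10 had the largest in MitoNegative. Lta passed the test in MitoPositive only, by 1.22-fold, and its difference between MitoPositive and MitoNegative did not pass. Ccl4, Xcl1 and Il2 passed in neither, although Xcl1 did with the letter as a block.

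The count level of the filter was reached in all 9 libraries by 7 members. Of these, 5 rose in MitoPositive against monoculture by edgeR's quasi-likelihood test (adjusted p under 0.05), where 42.2% of 15711 genes passed, 22.3% higher and 19.9% lower. In MitoNegative against monoculture 4 of the 7 rose, where 38.9% of genes passed, 20.6% higher and 18.3% lower. With the letter as a block, 6 and 5 of the 7 rose. In that fit 47.8% of the 15711 genes passed in MitoPositive, 3901 higher and 3607 lower. In MitoNegative 44.9% passed, 3688 higher and 3374 lower. With Il10 and Il2 included, 6 and 5 of 9 were called in the fit without the block. Those 2 reached the level through co-cultured libraries alone, Il10 in all 6 and Il2 in 3, so that a difference from monoculture was needed for them to be tested at all. The ranges of the 3 libraries did not overlap for 5 of the 7 in MitoPositive, where 27.3% of all genes were higher without overlap and 24.3% lower, and for 4 of the 7 in MitoNegative, where the shares were 25.9% and 22.9%. The median log2 fold change of the 7 was 0.71 and 0.80, against 0.0034 and 0.0093 over all genes tested. Both comparisons use the same monoculture libraries.

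Ifng encodes interferon gamma, which activates macrophages and raises antigen presentation. Its level was 5.23, 3.46 and 3.43 CPM in monoculture libraries B, C and D, 72.6, 87.5 and 53.7 in MitoNegative, and 149, 207 and 70.9 in MitoPositive. All 6 co-cultured libraries lay far above the 3 monoculture libraries, and the co-cultured groups overlapped through MitoPositive D. The log2 fold change was 5.14 ± 0.497 (SE) in MitoPositive (adjusted p = 0.000251) and 4.14 ± 0.482 in MitoNegative (adjusted p = 0.000749). Gm49751, an annotated gene on the same strand within Ifng, had 3.34 CPM in MitoPositive, 3.24 in MitoNegative and 2.497 in monoculture, and passed in no comparison.

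Tnf encodes tumour necrosis factor, which triggers inflammation and cell death through its receptors. Its level was 2.704, 3.41 and 2.80 CPM in monoculture, 4.91, 5.51 and 5.10 in MitoNegative, and 7.39, 7.26 and 5.51 in MitoPositive (B, C and D). Every co-cultured library was above every monoculture library. MitoPositive was 2.26-fold higher than monoculture (log2 1.18 ± 0.151, adjusted p = 8.01e-05) and MitoNegative 1.74-fold (log2 0.80 ± 0.150, adjusted p = 0.00144). Lta, the neighbouring gene of the same family, varied little. It had 15.03, 13.6 and 16.4 CPM in monoculture, 16.4, 15.5 and 17.7 in MitoNegative, and 18.4, 17.2 and 19.2 in MitoPositive. The MitoPositive libraries lay above all monoculture libraries (log2 0.28 ± 0.0886, adjusted p = 0.0233), and the MitoNegative libraries overlapped them (log2 0.14 ± 0.0887, adjusted p = 0.242). The Lta call in MitoPositive was lost without MitoPositive B (adjusted p = 0.0605), MitoPositive D (0.0824), monoculture B (0.0548) or monoculture C (0.0913).

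Csf2 encodes GM-CSF, a growth factor of granulocytes and macrophages. Its level was 0.164, 0.665 and 0.215 CPM in monoculture, from 10, 40 and 13 counts, 2.08, 3.69 and 1.81 in MitoNegative, and 3.93, 5.42 and 2.08 in MitoPositive. Both co-cultured groups were apart from monoculture, and letter C was the highest in each group. The fold was 10.9 in MitoPositive (log2 3.44 ± 0.571, adjusted p = 0.00129) and 7.25 in MitoNegative (log2 2.86 ± 0.570, adjusted p = 0.00404). Without monoculture C the log2 fold changes were 4.31 and 3.72. Il2, the T-cell growth factor, was barely detected, with 2, 2 and 7 counts in monoculture, 9, 14 and 3 in MitoNegative, and 18, 9 and 9 in MitoPositive. The MitoPositive libraries lay above the monoculture libraries on the CPM scale, and the MitoNegative libraries did not. The log2 fold change of Il2 was 1.52 ± 0.647 in MitoPositive (adjusted p = 0.0782) and 1.04 ± 0.674 in MitoNegative (adjusted p = 0.249). Without monoculture D, the monoculture library with 7 counts, the MitoPositive value was 2.37 with an adjusted p of 0.0312. Il2 entered the test only through co-cultured libraries, which these p-values do not take into account, so they are no independent support for a rise.

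Il3, which supports early blood cells and mast cells, had 0 counts in all 3 monoculture libraries, 4, 8 and 0 counts in MitoNegative, and 0, 2 and 0 in MitoPositive. Over the group, MitoNegative was 3.55-fold above a floor of 3 counts over the group for monoculture. The 95% counting interval of its ratio to monoculture started lower, at 2.47, and MitoNegative D had 0 counts like monoculture. MitoPositive and monoculture were both under that floor. The ratio of MitoPositive to MitoNegative was 0.170, with a 95% interval of 0.0184 to 0.761 that covers counting error only, and 8 of the 12 MitoNegative counts came from 1 library. Il10, which dampens macrophage and T-cell responses, had 2, 0 and 1 counts in monoculture, 26, 31 and 19 in MitoNegative, and 21, 39 and 29 in MitoPositive. Every co-cultured library held more than every monoculture library. The ratio of Il10 to monoculture was 26.8 in MitoPositive (95% counting interval 8.87 to 132) and 22.5 in MitoNegative (7.41 to 111). The fitted log2 fold changes were 4.65 ± 0.668 (adjusted p = 0.000186) and 4.34 ± 0.681 (adjusted p = 0.00044). Without monoculture B, which holds 2 of the 3 monoculture counts, they were 5.50 and 5.19. Like Il2, Il10 entered the test only through its co-cultured libraries, which its p-values do not take into account. B cells, dendritic cells and myeloid cells can also make Il10. Their summed markers are given above, and their part in the Il10 values was not tested.

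Of the chemokines, Ccl3 had 2.13, 2.21 and 1.59 CPM in monoculture, 2.90, 5.24 and 3.60 in MitoNegative, and 2.43, 4.30 and 3.03 in MitoPositive. Both co-cultured groups lay above monoculture, with MitoPositive B only slightly higher than monoculture C. The fold was 1.64 in MitoPositive (log2 0.71 ± 0.260, adjusted p = 0.0458) and 1.98 in MitoNegative (log2 0.99 ± 0.259, adjusted p = 0.0105). The MitoPositive call was lost without MitoPositive C (log2 0.46, adjusted p = 0.197), MitoPositive D (adjusted p = 0.0704), MitoNegative D (0.0574) or any one of monoculture B, C and D (0.0778, 0.067 and 0.134). The MitoNegative call was lost without MitoNegative C (log2 0.72, adjusted p = 0.0514).

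Ccl4, encoded beside Ccl3, had 4.26, 4.74 and 2.997 CPM in monoculture, 3.57, 4.74 and 3.35 in MitoNegative, and 2.57, 4.22 and 2.79 in MitoPositive. The 3 groups overlapped, with log2 fold changes of -0.33 ± 0.230 in MitoPositive (adjusted p = 0.273) and -0.04 ± 0.228 in MitoNegative (adjusted p = 0.906). Xcl1, the most abundant member in monoculture, had 17.3, 25.6 and 15.4 CPM there, 32.4, 35.4 and 18.7 in MitoNegative, and 23.5, 34.3 and 21.4 in MitoPositive. Letter C was the highest library and the groups overlapped, although within each letter both co-cultured libraries lay above their monoculture library. The log2 fold change was 0.44 ± 0.316 in MitoPositive (adjusted p = 0.309) and 0.57 ± 0.315 in MitoNegative (adjusted p = 0.202). With the letter as a block, which in MitoNegative against monoculture takes same-letter libraries as pairs, the MitoNegative value was 0.56 ± 0.112 (adjusted p = 0.0023).

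**Figure D2:**
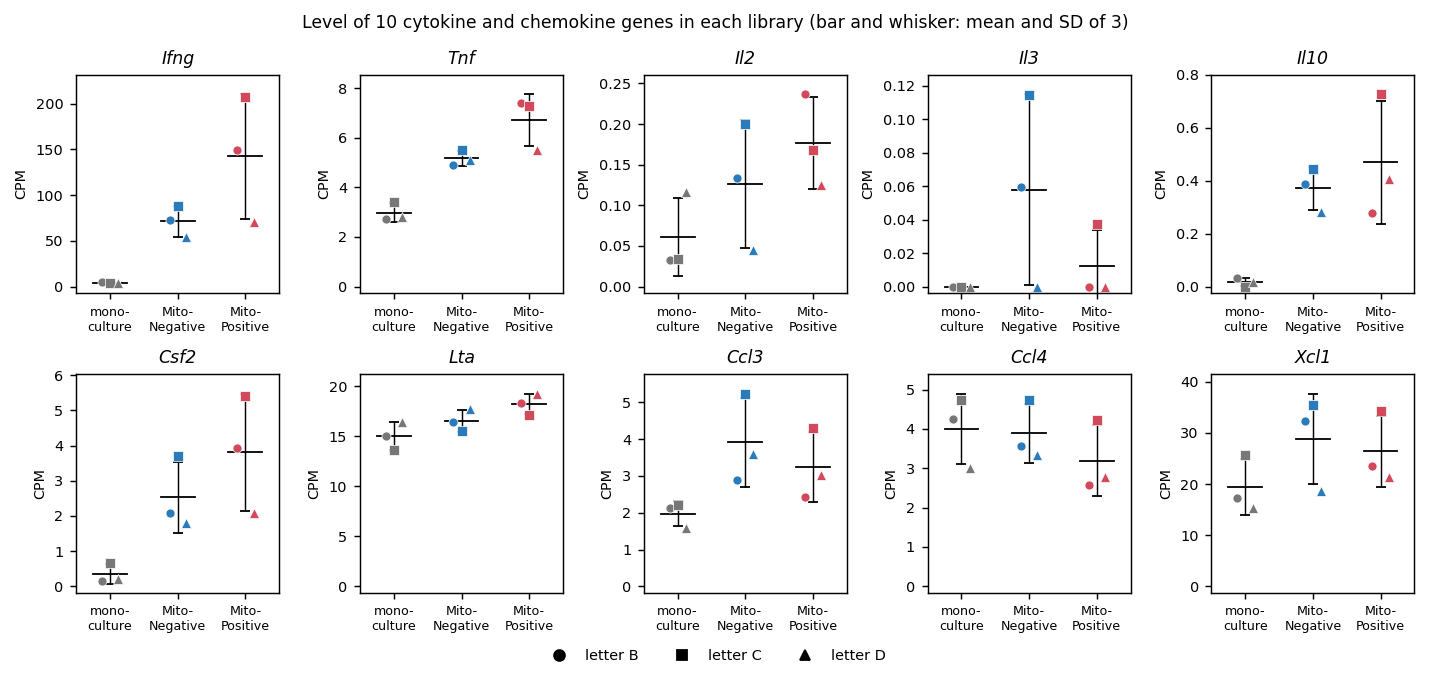
CPM of the 10 genes in each library (vertical axis, a separate linear scale per gene), by group, with the mean and SD of 3 libraries and a symbol for each letter. The co-cultured libraries lie above the monoculture libraries for Ifng, Tnf, Il10, Csf2 and Ccl3, and overlap with them for Ccl4 and Xcl1.

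The comparison of MitoPositive with MitoNegative asked whether co-cultured T cells that carried the stromal mitochondrial label differed from those that did not. None of the 9 tested members passed edgeR's quasi-likelihood test, where 0.165% of 15711 genes did (0.0891% higher, 0.0764% lower). This test had no term for the letter. Ifng and Tnf, 2 members, had an unadjusted p under 0.05, and DESeq2 and limma voom also called 0 members. The block fit called 0 members too, where 2.34% of genes passed. No member had ranges that did not overlap, where 10.5% of all genes were higher and 9.55% lower without overlap. The median log2 fold change was 0.14 over the 7 members at the filter's level in every library, against -0.00038 over all genes tested.

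Ifng was 1.996-fold higher in MitoPositive (log2 0.997 ± 0.402, adjusted p = 0.459), with ratios of 2.05, 2.37 and 1.32 within letters B, C and D. All 3 ratios were above 1, and the value in the fit with the letter as a block was 0.91 ± 0.221 (adjusted p = 0.107). For Tnf the fold was 1.30 (log2 0.38 ± 0.146, adjusted p = 0.379), with ratios of 1.51, 1.32 and 1.081. Csf2 had ratios of 1.89, 1.47 and 1.15 (log2 0.58 ± 0.477, adjusted p = 0.754), and Lta had ratios of 1.12, 1.11 and 1.09 (log2 0.14 ± 0.0882, adjusted p = 0.638). These 4 of the 9 members were higher in MitoPositive in 3 of 3 letters, as were 25.2% of all genes tested, and none of the 4 passed. Ccl3 had ratios of 0.836, 0.820 and 0.840 (log2 -0.28 ± 0.253, adjusted p = 0.780) and Ccl4 had ratios of 0.720, 0.890 and 0.833 (log2 -0.29 ± 0.229, adjusted p = 0.733). These 2 of the 9 were lower in 3 of 3 letters, as were 24.7% of all genes tested, and neither passed. The ratios of Xcl1 (0.725, 0.969 and 1.14), Il10 (0.716, 1.64 and 1.44) and Il2 (1.77, 0.838 and 2.82) lay on both sides of 1. Their log2 fold changes were -0.13 ± 0.313, 0.31 ± 0.413 and 0.48 ± 0.564, with adjusted p-values of 0.938, 0.870 and 0.850. A fit of these 6 libraries alone with the letter as a block, added after the data were seen, called Tnf (log2 0.37, adjusted p = 0.0146) and Csf2 (log2 0.58, adjusted p = 0.00758), while Ifng did not pass (adjusted p = 0.178). That fit called 2810 of 15431 genes, or 18.2%, so 2 of 9 members is near the share called in either direction. Of the 2810 genes, 1530 were higher and 1280 lower, and the 2 members were both higher.

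**Figure D3:**
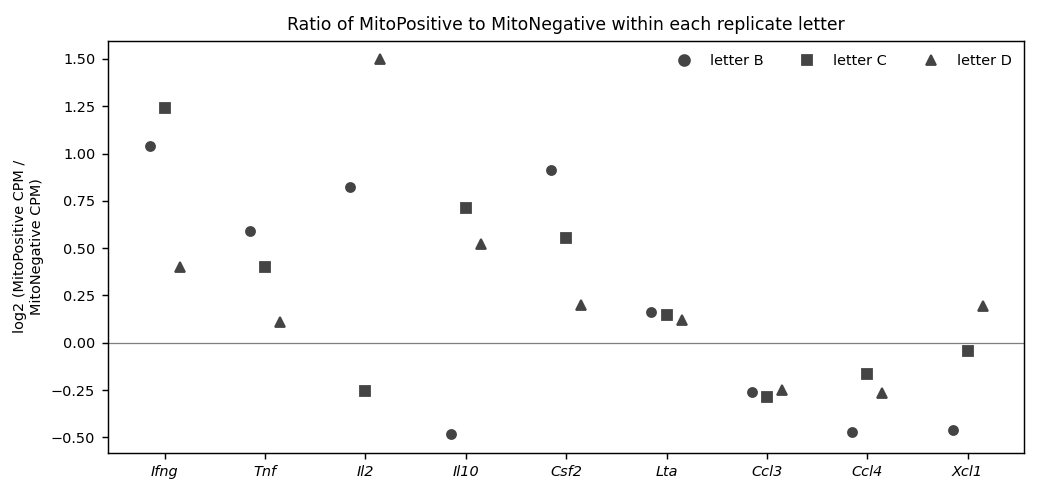
Log2 ratio of MitoPositive to MitoNegative CPM for 9 members within letters B, C and D (circle, square, triangle; the line marks equal levels). Ifng, Tnf, Csf2 and Lta lie above the line in all 3 letters, and Ccl3 and Ccl4 lie below it in all 3.

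**Figure D4:**
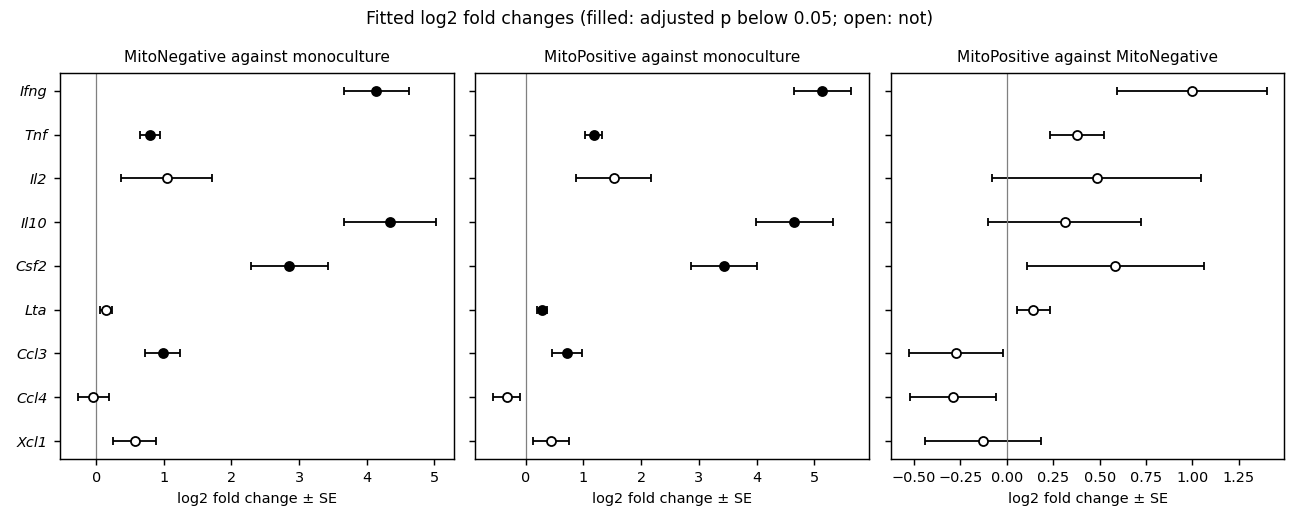
Fitted log2 fold changes with SE for the 9 tested members in the 3 comparisons (each panel has its own scale; filled points have an adjusted p under 0.05). Ifng, Tnf, Il10, Csf2 and Ccl3 are filled in both comparisons with monoculture and no member is filled between MitoPositive and MitoNegative.

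The members include 3 pairs that lie side by side in the genome (GRCm38, coordinates as deposited). Tnf (chr17:35199381-35202007) and Lta (chr17:35203165-35205351) are 1.157 kb apart on the minus strand. Ltb, the other gene of that cluster, which pairs with lymphotoxin alpha on the cell surface, lies 3.06 kb from Tnf and was far more abundant. Ltb had 1300 ± 71.7 CPM in MitoPositive, 1354 ± 121 in MitoNegative and 1591 ± 87.6 in monoculture, and fell by 0.29 on the log2 scale in MitoPositive against monoculture (adjusted p = 0.0174), a call lost without MitoPositive D (adjusted p = 0.0747). In MitoNegative its value was -0.23 ± 0.0864 (adjusted p = 0.0509), and -0.24 ± 0.0852 with the letter as a block (adjusted p = 0.0429). It also passed without monoculture C (adjusted p = 0.043), with DESeq2 (0.0129), DESeq2 size factors (0.0497), limma voom (0.0406) or total counts as the scale (0.0321), and without the low-count filter (0.0433). Within this cluster Tnf therefore rose while Ltb did not rise in either group. Ccl3 (chr11:83647844-83649355, minus strand) and Ccl4 (chr11:83662584-83664683, plus strand) are 13.228 kb apart, and Il3 (chr11:54265303-54267277) and Csf2 (chr11:54247271-54249667) are 15.635 kb apart on the minus strand. In both of these pairs 1 gene passed against monoculture, while its partner did not or was too low to test. Ifng spans chr10:118441046-118445892 (plus), Il2 chr3:37120523-37125959 (minus), Il10 chr1:131019845-131024974 (plus) and Xcl1 chr1:164931644-164935527 (minus). Whether counting used strand is not given in the sources used here. Of the genes that overlap a member on the opposite strand, Adad1 (Il2) had 0 counts, and Gm12223 (Csf2) and Gm20743 (Xcl1) had at most 12 counts over the libraries of any group.

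By the likeness of their profiles over the 9 libraries (root mean square difference of centred log2 CPM, among 10602 genes, or 10603 for Csf2, Il2 and Il10), the genes closest to Ifng were Styk1 (0.482), Tnfsf4 (0.496) and Cdkn1a (0.498). Tnfsf4, the ligand OX40L, had 51.5 CPM in MitoPositive, 29.0 in MitoNegative and 1.70 in monoculture. Those closest to Tnf were Pik3cg (0.0946), Crem (0.101) and Gpd2 (0.115). Csf2 was closest to Ccdc184 (0.353), Ifitm1 (0.360) and Plk2 (0.465), Ccl3 to Tmem120b (0.212), Nr4a2 (0.213) and Pkp4 (0.219), and Xcl1 to Pter (0.204), Nek6 (0.219) and Ccdc112 (0.221). For Il10 the closest gene was Ifng itself (0.659), a loose match. These distances describe shared shape in these libraries, which also share letters and depth.

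The receptors through which the members act were measured in the same T cells. All 18 genes of the list were tested. In MitoPositive against monoculture 9 were higher and 2 lower, and in MitoNegative 9 were higher and 1 lower, with median log2 fold changes of 0.45 and 0.29. Over all genes tested 22.3% were higher and 19.9% lower in MitoPositive, and 20.6% and 18.3% in MitoNegative, which is the background for this list and those that follow. In the block fit the MitoNegative counts were 8 and 2. Il2ra, the inducible chain of the interleukin 2 receptor, had 546 ± 91.4 CPM in MitoPositive, 335 ± 16.1 in MitoNegative and 101 ± 18.9 in monoculture. It rose by 2.44 ± 0.150 (adjusted p = 1.34e-06) and 1.73 ± 0.146 (adjusted p = 1.57e-05) on the log2 scale. Il10ra rose by 1.18 ± 0.178 and 1.02 ± 0.177, and Ifngr1, chosen after its values were seen, by 0.66 ± 0.0853 and 0.44 ± 0.0851. Tnfrsf14, a receptor of lymphotoxin alpha and of Tnfsf14, fell by 0.56 and 0.47 on the log2 scale. Between MitoPositive and MitoNegative no receptor passed (7 had an unadjusted p under 0.05), while the block fit called 3, DESeq2 3 and limma voom 1, all higher. Over all 15711 genes the block fit called 367 (2.34%), DESeq2 418 and limma voom 68 in this comparison. These numbers are the background for this list and those that follow. In the block fit Il2ra was 0.70 ± 0.137 higher (adjusted p = 0.0399) and Il2rb, the shared signalling chain, 0.42 ± 0.0877 higher (adjusted p = 0.0367). Without the block, Il2ra passed when MitoPositive D (adjusted p = 0.0253) or monoculture B (0.0378) was left out, and Il2rb when monoculture D was (0.0441). Il2rb also passed without the low-count filter (adjusted p = 0.00602), and DESeq2 called both genes (7.4e-05 for Il2ra and 0.00117 for Il2rb).

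Of 40 other cytokine and chemokine genes that T cells can make, 24 were tested. Against monoculture 11 were higher and 5 lower in MitoPositive, and 10 and 4 in MitoNegative, with medians of 0.02 and 0.03. Cxcl10, a chemokine induced by interferons, was 0.529 ± 0.0856 CPM in monoculture, 16.9 ± 10.4 in MitoNegative and 12.6 ± 7.42 in MitoPositive (log2 4.99 ± 0.713 and 4.57 ± 0.708, adjusted p = 0.00166 and 0.00202). Its values without MitoNegative B and MitoPositive B were 4.38 and 3.98. Lif, a cytokine of the interleukin 6 family, rose by 3.97 ± 0.315 in MitoPositive and 3.52 ± 0.312 in MitoNegative. Csf1, the macrophage growth factor, rose by 3.14 ± 0.243 and 2.89 ± 0.242. Stromal cells can make all 3, and the stromal markers given above were higher in the same libraries, whose part in these values was not tested. Ccl5, a chemokine of memory CD8+ T cells, fell by 1.55 and 1.43 on the log2 scale (adjusted p = 0.00132 and 0.00228), from 98.5 ± 28.5 CPM in monoculture to 33.7 ± 6.17 and 36.6 ± 2.78. Its MitoPositive call was lost in the fit of 2 groups with the letter as a block (adjusted p = 0.059). The direction was opposite to that of Ccl3, whose MitoPositive call held in 12 of 19 fits. Tnfsf14 (LIGHT) fell by 1.084 and 1.03. Between MitoPositive and MitoNegative none passed (3 with an unadjusted p under 0.05), while the block fit called 2, and DESeq2 and limma voom 1 each, all higher.

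All 44 transcription factors listed for their known action at cytokine genes were tested. In MitoPositive against monoculture 16 were higher and 11 lower, and in MitoNegative 16 and 9. The shares of all genes were 22.3% and 19.9% in MitoPositive and 20.6% and 18.3% in MitoNegative, and the numbers of lower factors were near them. The AP-1 members Fosl2 and Fosb rose by 3.06 ± 0.133 and 2.81 ± 0.347 in MitoPositive and by 2.40 ± 0.130 and 2.89 ± 0.347 in MitoNegative. Bhlhe40, which in T cells favours cytokine production and restrains Il10, rose from 73.5 ± 10.9 CPM to 603 ± 56.3 and 506 ± 47.5. Tbx21 (T-bet), a direct activator of Ifng, rose by 0.91 ± 0.133 and 0.53 ± 0.132. Its relative Eomes fell by 1.06 (adjusted p = 0.00175) and 0.63 (adjusted p = 0.0293), the latter lost without MitoNegative B (adjusted p = 0.105), MitoNegative C (0.0968) or monoculture D (0.102). That call was also lost without the low-count filter (adjusted p = 0.0658) and in a fit of the 2 groups alone (0.0579). Nfatc1 fell by 0.63 and 0.53, and Runx1 by 1.24 and 0.66. Prdm1 (Blimp-1), a repressor of Il2, passed between MitoPositive and MitoNegative as well, the 1 factor of the list to do so. Its level was 11.1 ± 1.76 CPM against 6.31 ± 0.280 (log2 0.81 ± 0.130, adjusted p = 0.0464), and 2.93 ± 0.251 in monoculture. That call was lost without MitoPositive B (adjusted p = 0.175) or C (0.267), MitoNegative B (0.198), C (0.230) or D (0.067), or monoculture C (0.062), with a stricter low-count filter (0.0512) and with total counts as the scale (0.0532). The block fit called 3 factors higher and 2 lower in this comparison.

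The list of regulators of cytokine mRNA decay and translation had 21 tested genes, of which 4 were higher and 5 lower in MitoPositive than in monoculture, and 4 and 7 in MitoNegative. The shares of all genes were 22.3% and 19.9%, and 20.6% and 18.3%, so the counts in MitoPositive were near the background. Zfp36, which binds AU-rich stretches such as those printed for Tnf and Csf2, fell from 98.5 ± 12.3 CPM to 35.2 ± 6.70 and 42.8 ± 7.53 (log2 -1.49 ± 0.166 and -1.203 ± 0.165, adjusted p = 0.000134 and 0.000553). Zfp36l1 fell by 0.44 in MitoPositive, and Zfp36l2 did not pass (-0.13 ± 0.0691 and 0.09 ± 0.0691). Zc3h12a (Regnase-1), an endonuclease that cleaves cytokine mRNAs, rose by 1.46 ± 0.145 and 1.204 ± 0.145. These 2 genes, which both shorten the life of cytokine mRNAs, moved in opposite directions. Between MitoPositive and MitoNegative no gene of the list passed (2 with an unadjusted p under 0.05), while the block fit and DESeq2 called 1 each, lower, and limma voom 0.

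Genes known to respond to 3 of the cytokines were counted in the same way. Of 36 tested interferon-gamma targets, 17 were higher and 2 lower in MitoPositive than in monoculture, and 19 and 2 in MitoNegative, with medians of 0.22 and 0.32. Cd274 (PD-L1) rose by 1.27 ± 0.102 and 1.34 ± 0.103, and Gbp5, a guanylate-binding protein, by 0.95 ± 0.0779 and 1.04 ± 0.0780. Socs1, a feedback inhibitor, rose by 0.59 ± 0.0721 and 0.66 ± 0.0721, and Irf1 did not pass (-0.05 ± 0.0902 and 0.21 ± 0.0902), although without MitoNegative B its MitoNegative value was 0.29 (adjusted p = 0.0328). Cd74 fell by 1.80 and 1.72 on the log2 scale. Cd74 is also on the dendritic and class II marker list, whose sum was lower after co-culture. Of 20 tested targets of tumour necrosis factor and NF-kappaB, 13 were higher and 2 lower in each co-cultured group. Tnfaip3 (A20), an inhibitor of that pathway, rose by 1.61 ± 0.0953 and 1.52 ± 0.0951, and Cd83 by 1.79 ± 0.188 and 1.98 ± 0.189. Between MitoPositive and MitoNegative no gene of these 2 lists passed, with 3 and 2 at an unadjusted p under 0.05. There the block fit called 1 and 2 of them lower, DESeq2 called 0 and 1 lower, and limma voom called 0 in both.

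Of 24 tested interleukin 2 and STAT5 targets, 21 were higher and 0 lower in MitoPositive than in monoculture, and 17 higher and 1 lower in MitoNegative, with medians of 0.88 and 0.62. Gzmb (granzyme B) rose from 37.5 ± 15.6 CPM to 791 ± 159 and 499 ± 68.8, and Cish, a feedback inhibitor, rose by 2.39 ± 0.0913 and 2.04 ± 0.0905. Between MitoPositive and MitoNegative the median of this list was 0.33 and 1 gene passed, the costimulatory receptor Icos (log2 0.40 ± 0.0624, adjusted p = 0.0464). The Icos call was lost without MitoPositive B (adjusted p = 0.164) or C (0.267), or MitoNegative B (0.198), C (0.230) or D (0.067), with a stricter low-count filter (0.0512) and with total counts as the scale (0.0625). The block fit called 8 of the 24 higher and 1 lower in this comparison, DESeq2 9 and 1, and limma voom 2 and 0. Over all 15711 genes these fits called 367, 418 and 68. Il2 itself did not pass in any of them.

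**Figure D5:**
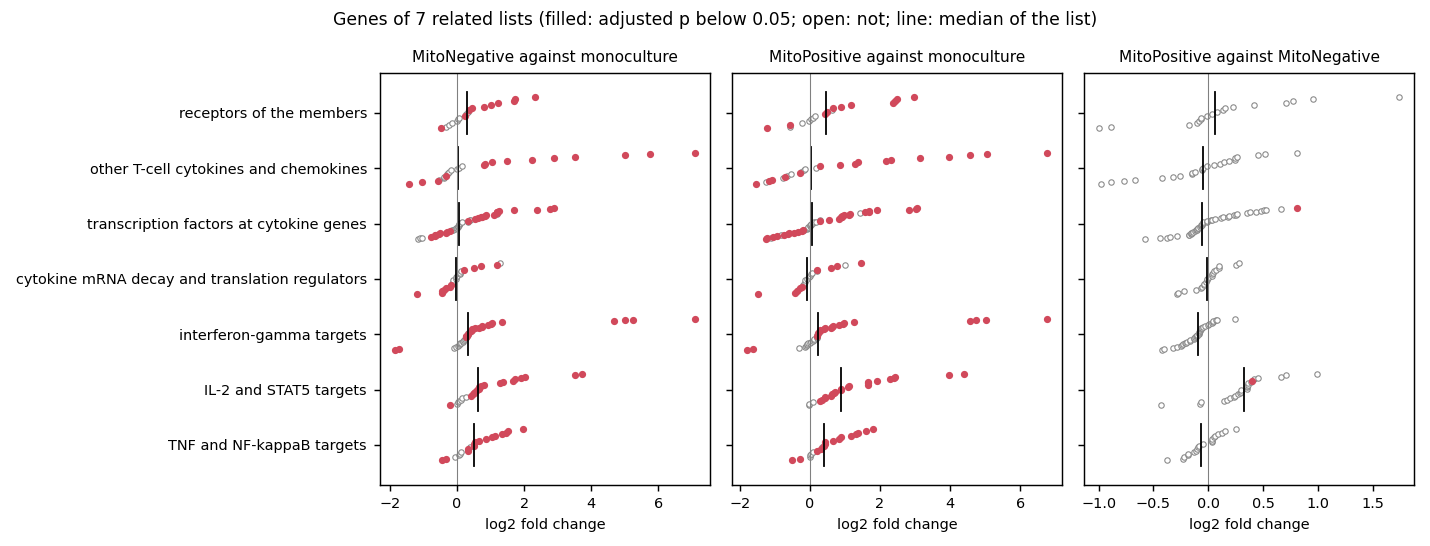
Log2 fold changes of the tested genes of 7 lists related to the members (1 point per gene; filled red points have an adjusted p under 0.05; the bar is the list's median; panels have their own scales). In the right panel, MitoPositive against MitoNegative, filled points are Prdm1 and Icos.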

How the data were processed

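The deposited table of raw counts, made by the authors with cutadapt, STAR 2.7 and featureCounts on GRCm38 per the submitters' processing notes, holds 55520 entries, of which 99 are spike-ins with 0 counts and 55421 are genes. The annotation release and strandedness are not given in the sources used here. The deposited annotation gave symbols, coordinates and exon lengths. A second deposited table of 16163 filtered genes was not used.

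In R 4.3.3, genes were kept by edgeR 4.0.16's filterByExpr (minimum count 10, minimum total 15), leaving 15711. TMM set the library scale, from which CPM was computed, and 1 robust quasi-likelihood model with a term per group took all 9 libraries (6 residual degrees of freedom). P-values were adjusted by Benjamini-Hochberg over all genes kept in each of 3 comparisons, with a threshold of 0.05. The code was tested on simulated data. Replicates differed by more than sampling noise (chi-square per degree of freedom 27.9 to 43.1), and total counts of 53546152 to 74722832 leave counting error large for Il2, Il3, Il10 and, in monoculture, Csf2.

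The 10 members, gene lists and naming rule were chosen with earlier results of these data known. Members are all named. For each list and comparison the rule named at most 3 higher and 3 lower genes, ranked by size of change among those called at a mean log2 CPM of 1 or more, besides 12 genes always allowed, neighbours within 50 kb and the 3 closest profiles. Ifngr1, and the MitoPositive values of Gbp5 and Cish, fall outside it, having been picked once their values were known. Correlations of same-letter residuals were 0.365, 0.313 and 0.43 between MitoPositive and MitoNegative and 0.184, 0.135 and 0.101 between MitoNegative and monoculture. All were over 0.1, so letters count as pairs in these comparisons, but only the block fits use them. The main fit has no term for the letter, and its p-values ignore this pairing. Between MitoPositive and monoculture the correlations were 0.212, 0.0452 and 0.15, so by the threshold letters were not taken as pairs there. Alternatives were other scalings, filters, DESeq2 1.42.0, limma 3.58.1 voom, the replicate block (4 residual degrees of freedom), fits of 2 groups and leaving out each library; the block with only 2 groups was added after seeing the data.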

Additional observations from a re-analysis of the deposited data

How the results depend on the processing

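Between MitoPositive and MitoNegative the number of genes called was 26, and it moved by more than 1.5 times in every alternative run: 15 with DESeq2 size factors, 14 with total counts as the scale, 171 without the low-count filter, 4 with a stricter filter, 418 with DESeq2, 68 with limma voom and 65 in a fit of the 2 groups alone. With the replicate block it was 367, and 2810 with the block and only the 2 groups. It ranged from 1 to 120 when 1 library was left out (MitoPositive B, C and D 3, 1 and 105; MitoNegative B, C and D 1, 1 and 13; monoculture B, C and D 51, 10 and 120). The cause was not tested. The number of members called there was 0 in all of these except the block with only the 2 groups, where it was 2. Against monoculture the number of members called ranged from 4 to 6 of 9 in MitoPositive and from 4 to 5 in MitoNegative when 1 library was left out. In the same fits 5484 to 6695 and 4921 to 6037 of all genes were called, with 15962 to 16088 tested. The 9 include Il10 and Il2, which in the main fit reached the filter's level through co-cultured libraries alone. Ifng, Tnf and Csf2 were called against monoculture in both groups in every alternative. Il10 was too where it was tested, which its low monoculture counts made depend on the co-cultured libraries being high. Ccl3 in MitoPositive was called in 12 of 19 fits and Lta in 15 of 19; limma voom also lost Ccl3 (adjusted p = 0.0828). With the replicate block Xcl1 in MitoPositive against monoculture was 0.45 ± 0.112 (adjusted p = 0.00766), so that 7 of 9 members were called, all higher. Of all genes 47.8% were called there, 3901 higher and 3607 lower. Letters were not taken as pairs in that comparison. Xcl1 in MitoNegative against monoculture passed with the block too (adjusted p = 0.0023), where 6 of 9 members were called, all higher. Of all genes 44.9% were called there, 3688 higher and 3374 lower. The block changed no other call of a member.

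Directions reversed only in values that did not pass, each time with 1 library left out. Over those fits, in MitoPositive against MitoNegative, Il10 ranged from -0.13 (without MitoPositive C) to 0.59, Xcl1 from -0.36 to 0.048 (0.00033 without MitoPositive D, the highest without MitoNegative C) and Ccl5 from -0.25 to 0.013 (without MitoPositive D). In MitoNegative against monoculture Ccl4 ranged from -0.20 to 0.10 (above 0 without MitoNegative B or D or monoculture B or C) and Il2rb from -0.036 to 0.11 (below 0 without MitoNegative C or D or monoculture B or C). In MitoPositive against monoculture Irf1 ranged from -0.12 to 0.013 (above 0 without MitoPositive B or monoculture C). Depth limits Il2, Il3 and Il10, which had at most 39 counts in any library, and Csf2 in monoculture, with at most 40.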
